A study of Mus musculus with 12 samples.

Results

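The Fat, Dachsous and Celsr cadherins are giant cell surface proteins, and 8 of their genes were followed here in primary mouse oligodendrocyte precursor cells (OPCs) that had received extracellular vesicles (EVs) of microglia. The members were Fat1, Fat2, Fat3, Fat4, Dchs1, Celsr1, Celsr2 and Celsr3, which are 8 of the 30077 genes carrying a single symbol among the 65535 transcript clusters of the array table. A transcript cluster is the set of array probes summarised for a gene. The genes were chosen by their family, with results of these arrays known, and their clusters were to be selected on the highest mean log2 value over the 12 arrays, but each of the 8 symbols stood on just 1 cluster, so that this measure decided nothing. The OPCs came from the brain of C57BL/6 pups of postnatal day 2 by magnetic sorting for CD140a, were seeded at 300000 cells per well, and grew for 48 h with PDGF-AA and bFGF before thyroid hormone started their differentiation. MSC-EVs were EVs of microglia given the inflammatory cytokines IL-1β, TNF and IFN-γ while sharing medium with mesenchymal stem cells (MSCs), IL4-EVs came from microglia exposed to interleukin-4, i-EVs came from microglia given the same cytokines without MSCs, and CTRL cells had medium alone. All donor microglia were pulsed with ATP to release EVs, and the EVs of 2 microglia per OPC were added in 50 µl at about 4 h of differentiation. RNA was taken at 24 h of differentiation according to the methods (the deposited design text counts 24 h of treatment), and each of the 4 groups had 3 samples on 1 Clariom D array each. The methods call the replicates independent but name no separate litters or cultures. The p-values therefore set group differences against the spread among these samples, and part of that spread may be technical.

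Cadherins hold neighbouring cells together through repeated extracellular domains. Fat and Dachsous proteins are the giants of the superfamily: in flies Dachsous is the ligand of Fat on the neighbouring cell, and in mice Dchs1 pairs with Fat4 in the same way. In flies the pair feeds into Hippo signalling, a kinase cascade that holds back the growth-promoting co-activators related to Yap and Taz, and into planar cell polarity, the alignment of cells within a tissue sheet. Celsr proteins combine cadherin repeats with a membrane-spanning part of the adhesion G protein-coupled receptor class, bind each other across cell borders and belong to the core planar cell polarity machinery, which also steers axons and cilia. All of these proteins are encoded by very long mRNAs.

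The sequences around the transcription start of Fat3 and Celsr2 are shown because both genes rose with MSC-EVs, as described further on, and because their starts in the RefSeq table of the build GRCm38.p6 lie near the outer end of the gene. The table gives 250 bases before and 50 bases after a start for 32851 genes, and 6 of the 8 members matched by symbol. The start it uses lay 490 bases inside the RefSeq gene for Celsr2, 627 bases for Fat3, 22 bases for Celsr3 and 2273 bases for Fat4, but 17108 bases for Fat1 and 25248 bases for Fat2, so that no sequence is shown for these last genes. Capitals mark CpG dinucleotides, the targets of DNA methylation, and both sequences read 5′ to 3′ on the minus strand.
Fat3 (chr9:16502005-16502304): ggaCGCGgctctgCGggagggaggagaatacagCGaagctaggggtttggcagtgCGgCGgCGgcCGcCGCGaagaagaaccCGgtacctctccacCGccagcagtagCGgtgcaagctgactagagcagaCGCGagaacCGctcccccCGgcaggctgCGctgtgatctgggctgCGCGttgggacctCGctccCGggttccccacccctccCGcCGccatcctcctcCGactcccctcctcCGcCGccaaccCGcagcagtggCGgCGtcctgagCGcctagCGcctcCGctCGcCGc
Celsr2 (chr3:108415530-108415829): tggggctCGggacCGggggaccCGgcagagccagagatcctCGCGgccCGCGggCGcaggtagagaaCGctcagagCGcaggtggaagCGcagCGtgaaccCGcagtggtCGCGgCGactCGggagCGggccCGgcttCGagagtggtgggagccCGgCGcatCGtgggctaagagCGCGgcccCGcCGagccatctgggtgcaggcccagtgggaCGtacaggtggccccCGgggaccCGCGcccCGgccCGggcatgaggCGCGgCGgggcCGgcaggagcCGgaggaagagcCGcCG
The Fat3 window held 35 CpG and 71.3% G and C, and the Celsr2 window held 40 CpG and 76.3% G and C, against medians of 7 CpG and 52.7% over all windows. Of all windows, 93% had fewer CpG than that of Fat3 and 96.1% had fewer than that of Celsr2. The Celsr3 window held 25 CpG and the Fat4 window 13 CpG. The letters GGAATG, the core of the site that Tead factors read at Hippo target genes, were searched on both strands and occurred in 14.7% of all windows, with 1 match each in the windows of Fat1 and Fat2, which lie inside those genes, and none in those of Fat3, Fat4, Celsr2 and Celsr3. No match says only that these letters are not in a window.

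Deposited values were intensities normalised by RMA and were turned to log2. The median over all clusters lay between 3.53 and 3.65 log2 units on the 12 arrays. Of the OPC markers, 7 of 7 passed a minimum mean of 6 log2 units over the 12 arrays, while none of 8 microglia, 6 fibroblast, 6 endothelium and 4 ependyma markers did. For astrocytes 2 of 6 and for neurons 4 of 8 markers passed it. The array that differed from the other 11 was that of MSC-EVs replicate 3: Mki67 stood at 16.69 there against 14.28 to 14.92 elsewhere, Bmp4 at 7.19 against 10.56 to 11.07, Enpp6 at 5.13 against 8.87 to 9.63, and Sox9 at 13.87 against 12.11 to 12.53. Its summed level of 6 astrocyte markers was 13.99 log2 units (12.41 to 12.80 on the others), that of 12 cell cycle genes 17.72 (15.86 to 16.29) and that of 6 markers of committed precursors 12.27 (13.24 to 14.00), so results that rest on it are also given without it. The astrocyte sum followed Sox9. Aldoc, the other astrocyte marker past the minimum mean, stood at 10.31 on this array, within 9.76 to 10.42 on the others. Other summed levels moved with the EVs as well. The committed precursor markers lay at 13.98 to 14.00 with MSC-EVs without replicate 3, 13.87 to 13.98 with IL4-EVs, 13.59 to 13.82 with i-EVs and 13.24 to 13.52 in CTRL, and the neuron markers at 13.72 to 13.78, 13.67 to 13.73, 13.48 to 13.67 and 13.49 to 13.55 in the same groups. The neuron markers did not move together. Without MSC-EVs replicate 3 Dcx rose with MSC-EVs and IL4-EVs (0.54 and 0.50, adjusted p = 0.00329 and 0.00316, limma). Snap25 fell in the same comparisons (-0.53 and -0.56, adjusted p = 0.00488 and 0.00267, limma), and no other neuron marker passed. The cell cycle genes lay at 15.94 to 16.06 with MSC-EVs without replicate 3, 15.95 to 16.09 with IL4-EVs, 15.86 to 15.93 with i-EVs and 16.18 to 16.29 in CTRL, and the astrocyte markers at 12.53 on both arrays, 12.41 to 12.52, 12.65 to 12.80 and 12.64 to 12.78. No cell cycle gene passed the test over the 12 arrays, but without MSC-EVs replicate 3 9 of 12 fell with MSC-EVs, 9 with IL4-EVs and 7 with i-EVs (2 rose with MSC-EVs and 1 with IL4-EVs), and 2 of the 6 committed precursor markers rose with each EV type. In that fit 4.93% of all clusters rose with MSC-EVs, 2.7% with IL4-EVs and 0.601% with i-EVs. The share of all clusters that fell was not counted, so the counts of genes that fell have no base to be set against. The part of these marker and cell cycle genes in the cadherin values was not tested.

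Within the family 2 genes passed the minimum mean of 6 log2 units, Fat1 with a mean of 9.45 and Dchs1 with 6.90 over the 12 arrays. Celsr2 averaged 5.98, Fat4 5.43, Fat3 5.28 and Celsr3 4.83, all above the array medians. Celsr1 averaged 3.44 and Fat2 3.14 log2 units, below the median of all clusters on each array, so a change of these 2 genes was not detectable at this signal. Levels of different genes come from different probes and were not compared with each other.

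Fat1 (gene ID 14107, chromosome 8), a receptor of the Fat class that is known to organise actin at cell contacts, changed most in the family. Its log2 intensity was 10.03, 9.98 and 10.63 with MSC-EVs, 9.54, 9.83 and 9.78 with IL4-EVs, 9.33, 9.24 and 9.25 with i-EVs, and 8.31, 8.66 and 8.81 in CTRL. No array of a group reached into the range of the next group, so the order was MSC-EVs, IL4-EVs, i-EVs and CTRL. Means were 10.21 ± 0.36 with MSC-EVs, 9.72 ± 0.16 with IL4-EVs, 9.27 ± 0.05 with i-EVs and 8.60 ± 0.26 in CTRL (SD, n = 3 each). Fat1 was 3.06-fold higher with MSC-EVs than in CTRL (log2 fold change 1.62, SE 0.17, adjusted p = 0.000412, limma with Benjamini-Hochberg adjustment over all clusters) and 2.17-fold higher with IL4-EVs (1.12, SE 0.17, adjusted p = 0.00347). With i-EVs the value was 0.68 log2 units above CTRL (1.60-fold, 95% interval 0.31 to 1.05, adjusted p = 0.0890, limma), which did not pass the test. In bulk RNA more cells of a type and more RNA per cell cannot be told apart. The rise of Fat1 was known when the family was chosen, and its p-values describe these arrays without being independent support.

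**Figure D1:**
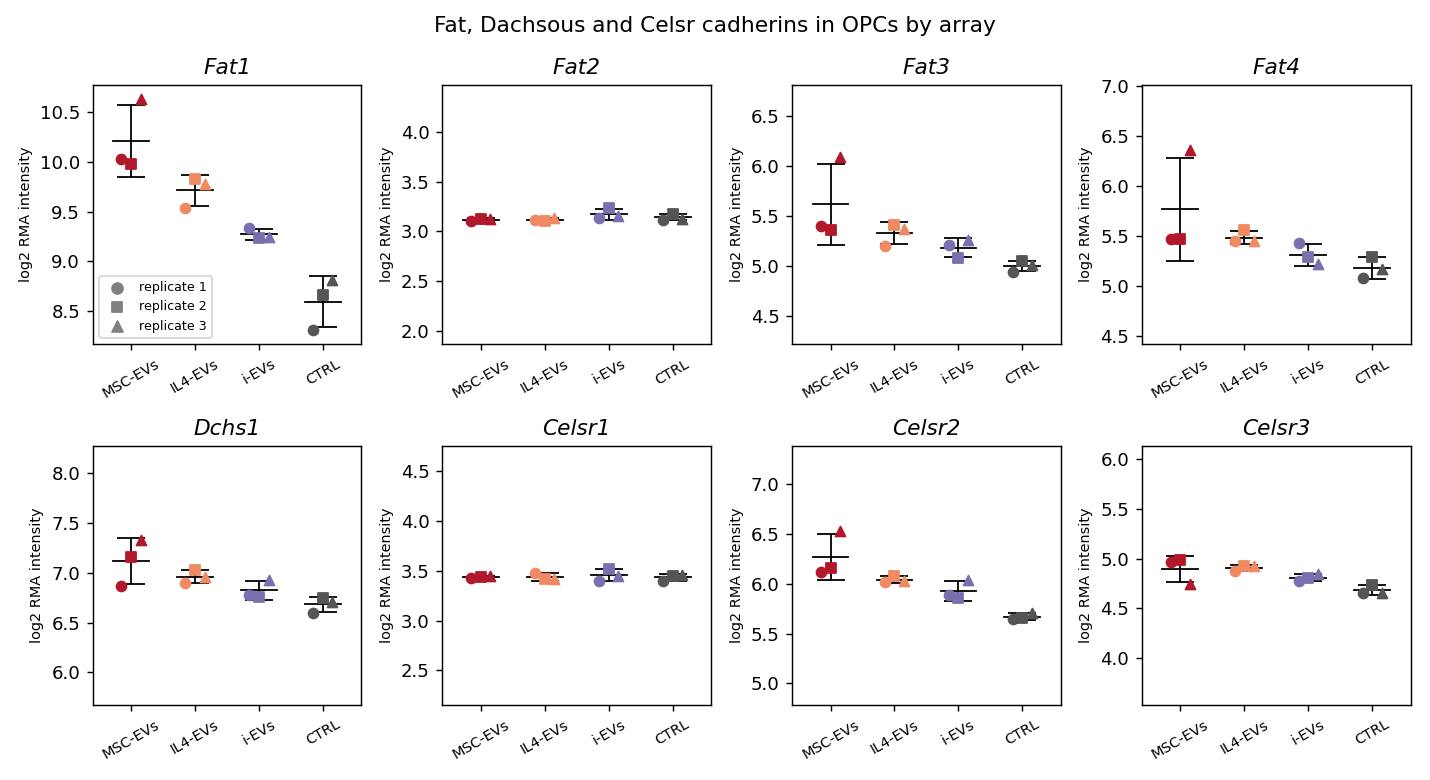
Log2 RMA intensity of each cadherin gene on each of the 12 arrays, with 1 panel per gene, groups on the x axis and horizontal lines for the mean ± SD of 3 arrays; all panels span the same number of log2 units. The Fat1 arrays of the 4 groups do not overlap and lie between 8.31 and 10.63, while Fat2 and Celsr1 stay near 3.1 and 3.4 in all groups.

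Fat3 (gene ID 270120, chromosome 9), which shapes dendrites of retinal interneurons in mice, stood at 5.40, 5.36 and 6.09 with MSC-EVs, 5.20, 5.41 and 5.38 with IL4-EVs, 5.21, 5.08 and 5.26 with i-EVs, and 4.94, 5.05 and 5.01 in CTRL. All 9 arrays with EVs were above all 3 CTRL arrays, and the EV groups overlapped except that MSC-EVs lay above i-EVs. Fat3 rose with MSC-EVs by 0.62 log2 units (1.53-fold, SE 0.16, 95% interval 0.27 to 0.96, adjusted p = 0.0237, limma), or by 0.38 without MSC-EVs replicate 3 (adjusted p = 0.0140). It stood 0.33 above CTRL with IL4-EVs (adjusted p = 0.329) and 0.19 with i-EVs (adjusted p = 0.699, limma). Fat4 (gene ID 329628, chromosome 3), the receptor of Dchs1, stood at 5.47, 5.47 and 6.36 with MSC-EVs, 5.45, 5.56 and 5.44 with IL4-EVs, 5.43, 5.29 and 5.21 with i-EVs, and 5.08, 5.29 and 5.16 in CTRL. The MSC-EVs and IL4-EVs arrays were above all CTRL arrays, and the i-EVs arrays overlapped with CTRL. Fat4 did not pass the test in any comparison over the 12 arrays: with MSC-EVs its difference from CTRL was 0.59 (95% interval 0.17 to 1.01, adjusted p = 0.0703), with IL4-EVs 0.31 (adjusted p = 0.518) and with i-EVs 0.13 (adjusted p = 0.845, limma). It passed with MSC-EVs without MSC-EVs replicate 1 or 2 (0.74 in both fits, adjusted p = 0.0367 and 0.0352), whereas without replicate 3 the difference was 0.29 (0.0567), and with IL4-EVs it passed without MSC-EVs replicate 3 (0.0354, limma). Fat2 (gene ID 245827, chromosome 11), known from cerebellar granule cells in mice, lay between 3.11 and 3.13 with MSC-EVs, 3.11 and 3.14 with IL4-EVs, 3.13 and 3.23 with i-EVs, and 3.12 and 3.18 in CTRL. Its difference between MSC-EVs and CTRL was -0.022 log2 units with a 95% interval of -0.14 to 0.10 (adjusted p = 0.887, limma).

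Dchs1 (gene ID 233651, chromosome 7), the ligand of Fat4, moved in the same direction with smaller steps. It stood at 6.87, 7.16 and 7.33 with MSC-EVs, 6.90, 7.03 and 6.95 with IL4-EVs, 6.78, 6.76 and 6.93 with i-EVs, and 6.60, 6.75 and 6.70 in CTRL. Every array with EVs exceeded every CTRL array, and the range of MSC-EVs overlapped with those of both other EV groups. Means were 7.12 ± 0.23 with MSC-EVs, 6.96 ± 0.06 with IL4-EVs, 6.82 ± 0.09 with i-EVs and 6.68 ± 0.08 in CTRL (SD, n = 3 each). Dchs1 rose with MSC-EVs by 0.43 log2 units (1.35-fold, SE 0.10, 95% interval 0.20 to 0.66, adjusted p = 0.0179, limma). Its differences from CTRL with IL4-EVs (0.28, adjusted p = 0.182) and i-EVs (0.14, adjusted p = 0.646, limma) did not pass. The call with MSC-EVs was lost without CTRL replicate 1 (adjusted p = 0.0785), without MSC-EVs replicate 2 (0.0508) and without MSC-EVs replicate 3 (0.0540).

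Of the Celsr genes, Celsr2 (gene ID 53883, chromosome 3), which serves neuronal migration and ependymal cilia in mice, stood at 6.12, 6.16 and 6.53 with MSC-EVs, 6.02, 6.08 and 6.02 with IL4-EVs, 5.89, 5.86 and 6.04 with i-EVs, and 5.65, 5.66 and 5.71 in CTRL. The MSC-EVs arrays were above all others, and all EV arrays were above CTRL. Celsr2 rose with MSC-EVs by 0.60 log2 units (1.51-fold, SE 0.10, 95% interval 0.38 to 0.82, adjusted p = 0.00271, limma). With IL4-EVs the difference was 0.37 (95% interval 0.15 to 0.59, adjusted p = 0.0541), and with i-EVs it was 0.26 (adjusted p = 0.270, limma). Celsr3 (chromosome 9, matched by symbol because the array annotation gave no gene ID), which guides axon tracts in mice, stood at 4.97, 4.98 and 4.75 with MSC-EVs, 4.88, 4.93 and 4.93 with IL4-EVs, 4.77, 4.80 and 4.84 with i-EVs, and 4.65, 4.74 and 4.66 in CTRL. It was the only member with a mean above CTRL of at least 0.1 log2 units for which MSC-EVs did not hold the highest mean: 4.90 ± 0.13 with MSC-EVs, 4.91 ± 0.03 with IL4-EVs, 4.81 ± 0.04 with i-EVs and 4.68 ± 0.05 in CTRL (SD, n = 3 each). Its differences from CTRL were 0.22 with MSC-EVs (adjusted p = 0.0734), 0.23 with IL4-EVs (adjusted p = 0.0965) and 0.12 with i-EVs (adjusted p = 0.513, limma). Celsr1 (gene ID 12614, chromosome 15), needed for neural tube closure in mice, lay between 3.43 and 3.44 with MSC-EVs, 3.41 and 3.48 with IL4-EVs, 3.40 and 3.51 with i-EVs, and 3.39 and 3.46 in CTRL, with a difference of 0.0017 log2 units between MSC-EVs and CTRL (95% interval -0.12 to 0.13).

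The question behind the arrays was what EVs of differently primed microglia change in OPCs compared with medium, and with MSC-EVs 4 of the 8 cadherins rose (Fat1, Fat3, Dchs1 and Celsr2) and none fell. Over all 65535 clusters, 5.86% rose and 6.75% fell in this comparison, and of the clusters with a mean of at least 6 log2 units 15.3% rose. With a fold of at least 1.5 as well, Fat1, Fat3 and Celsr2 counted, against 3.12% of all clusters, but without MSC-EVs replicate 3 Fat1 alone did (2.4% of all clusters). The groups did not overlap for 6 members, all higher with MSC-EVs (12.4% of all clusters). The median log2 fold change of the 8 members was 0.51 and that of all clusters was -0.0080; without MSC-EVs replicate 3 the members' median was 0.31. Fat1 and Celsr2 passed in every setting in which they were tested. Fat3 lost its call in the linear model without moderation (adjusted p = 0.0723). It also lost its call without CTRL replicate 1, 2 or 3 (adjusted p = 0.0854, 0.0565 and 0.0614, limma). Without CTRL replicate 1 only Fat1 and Celsr2 passed (3.55% of all clusters then rose). The same 2 genes passed with MSC-EVs and CTRL fitted alone, against 3.61% of all clusters.

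**Figure D2:**
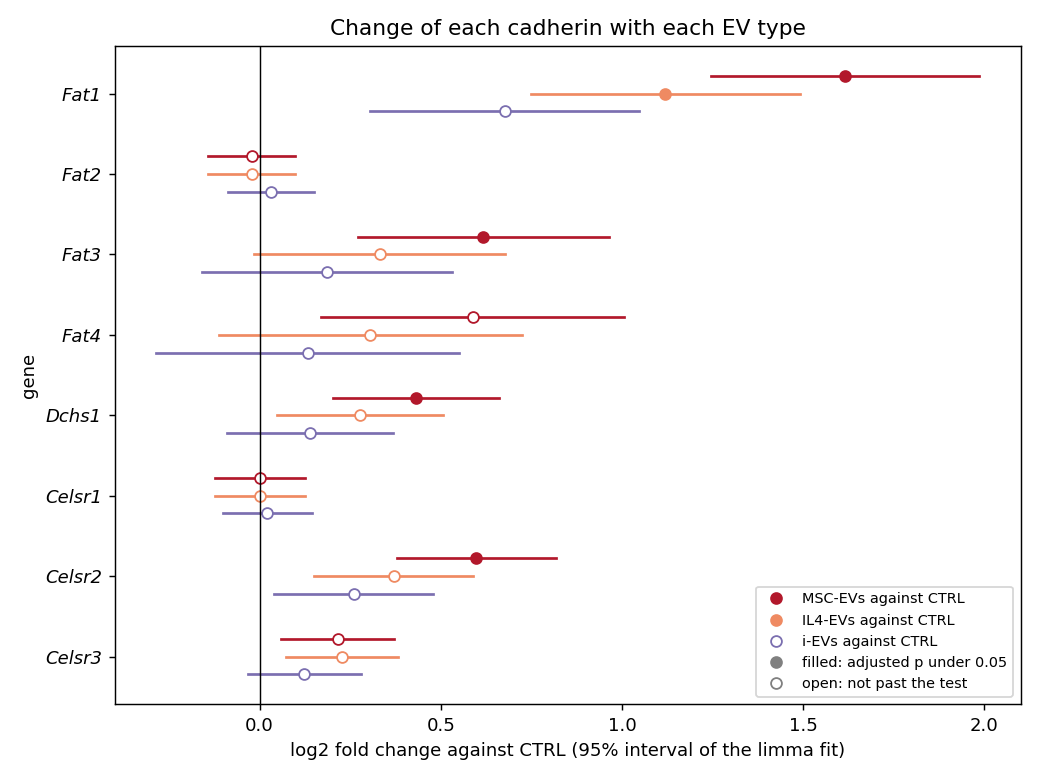
Log2 fold change against CTRL (x axis) of each cadherin gene (rows) with MSC-EVs, IL4-EVs and i-EVs; points are estimates of the limma fit, lines their 95% intervals, and filled points have an adjusted p under 0.05. Fat1 lies farthest right with 1.62, 1.12 and 0.68, and the intervals of Fat2 and Celsr1 include 0 for all EVs.

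With IL4-EVs 1 of 8 members rose, Fat1, and none fell, against 1.61% of all clusters that rose, 4.13% that fell and 6.47% that rose of those with a mean of at least 6 log2 units. Fat3, Fat4, Dchs1, Celsr2 and Celsr3 also had all IL4-EVs arrays above all CTRL arrays, so 6 members did not overlap (11.8% of all clusters), and 4 members were higher at an unadjusted p under 0.05 (6.58% of all clusters). The median log2 fold change of the members was 0.29 and that of all clusters 0.00089. The count depended on the MSC-EVs arrays, which enter this comparison through the shared estimate of spread: without MSC-EVs replicate 3, 5 members rose (Fat1, Fat3, Fat4, Celsr2 and Celsr3), against 2.7% of all clusters, and without MSC-EVs replicate 1 it was 2 members (Fat1 and Celsr2), against 1.68%. With IL4-EVs and CTRL fitted alone, 6 members rose, against 3.09% of all clusters.

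With i-EVs none of the 8 members passed the test in limma, 0 higher and 0 lower, where 0.0977% of all clusters rose and 0.378% fell, and 2 members were higher at an unadjusted p under 0.05 (5.81% of all clusters). For Fat1, Fat3, Dchs1, Celsr2 and Celsr3 all i-EVs arrays were above all CTRL arrays (9.52% of all clusters). The median log2 fold change of the members was 0.14, and that of all clusters was 0.019. Fat1 passed without MSC-EVs replicate 3 (adjusted p = 0.0236), in a fit that called 0.601% of all clusters higher. All comparisons with CTRL used the same 3 CTRL arrays, so their fold changes are not independent of each other. CTRL replicate 1 was the lowest of the 12 arrays for 7 of the 8 members, Fat2 being the exception.

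The EV types were also compared with each other. MSC-EVs against i-EVs gave Fat1 a fold of 1.92 (log2 fold change 0.94, SE 0.17, 95% interval 0.57 to 1.31, adjusted p = 0.0286, limma), the only member to pass, where 1.07% of all clusters were called higher. This call was lost when any i-EVs replicate was left out (adjusted p = 0.0891, 0.0744 and 0.0689 without replicates 1, 2 and 3) and without MSC-EVs replicate 3 (0.0563), although the estimate stayed between 0.73 and 0.97 in these fits. Fat1, Fat3, Fat4 and Celsr2 had all MSC-EVs arrays above all i-EVs arrays (8.11% of all clusters), and the dim Fat2 had all of them below (9.92%). Between MSC-EVs and IL4-EVs no member passed in limma, where 0.00153% of all clusters were called higher, and 2 were higher at an unadjusted p under 0.05 (5.46% of all clusters): Fat1 differed by 0.50 (95% interval 0.13 to 0.87, adjusted p = 0.464) and Celsr2 by 0.23 (adjusted p = 0.545). Without MSC-EVs replicate 3 these differences were 0.29 and 0.096 (adjusted p = 0.842 and 0.924, limma). Fat1 and Celsr2 were also the members whose MSC-EVs arrays all lay above the IL4-EVs arrays (7.19% of all clusters). Between IL4-EVs and i-EVs no member and 0% of all clusters passed in limma, and Fat1 was higher at an unadjusted p under 0.05 (2.75% of all clusters), with a difference of 0.44 (95% interval 0.07 to 0.81, adjusted p = 0.593). Fat1, Fat4 and Celsr3 had all IL4-EVs arrays above the i-EVs arrays (5.55% of all clusters). The linear model without moderation also called no member in these last comparisons, nor between i-EVs and CTRL. A p that misses the threshold does not show that EV types act alike.

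The order of groups seen in Fat1 was followed through the family. All 4 groups lay apart in the order MSC-EVs, IL4-EVs, i-EVs and CTRL for Fat1 alone of the 8 members, and for 161 of all clusters (0.246%); of the 13061 clusters with a mean of at least 6 log2 units 138 did so (1.06%), and the reverse order was met by 88 clusters (0.134%). The group means of Fat3, Fat4, Dchs1 and Celsr2 followed the same order with overlapping arrays, though without MSC-EVs replicate 3 Fat4 stood 0.015 lower with MSC-EVs than with IL4-EVs. For no member did neighbours in this order differ past the test: for Fat1 the adjusted p was 0.464 for MSC-EVs against IL4-EVs, 0.593 for IL4-EVs against i-EVs and 0.0890 for i-EVs against CTRL (limma).

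The array of MSC-EVs replicate 3, which stood apart in cell cycle and precursor genes, was the highest of the 12 arrays for Fat1, Fat3, Fat4, Dchs1 and Celsr2. It exceeded the mean of MSC-EVs replicates 1 and 2 by 0.89 log2 units in Fat4, 0.71 in Fat3, 0.63 in Fat1, 0.40 in Celsr2 and 0.31 in Dchs1, while Celsr3 was 0.23 lower there. The other 2 MSC-EVs arrays alone lay above the CTRL mean by 1.41 in Fat1, 0.47 in Celsr2, 0.38 in Fat3, 0.33 in Dchs1, 0.29 in Celsr3 and 0.29 in Fat4. Without that array 4 members still rose with MSC-EVs, but they were not the same genes: Fat1 (1.41, adjusted p = 0.000516), Celsr2 (0.47, 0.00244), Fat3 (0.38, 0.0140) and Celsr3 (0.29, 0.0114) passed in limma, Dchs1 no longer did (0.33, 0.0540), and 4.93% of all clusters rose in that fit. Fat4 stood at 0.29 without it (adjusted p = 0.0567, limma), against 0.59 with it. The part of Sox9 and of the cell cycle genes that moved on this array in the cadherin values was not tested.

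**Figure D3:**
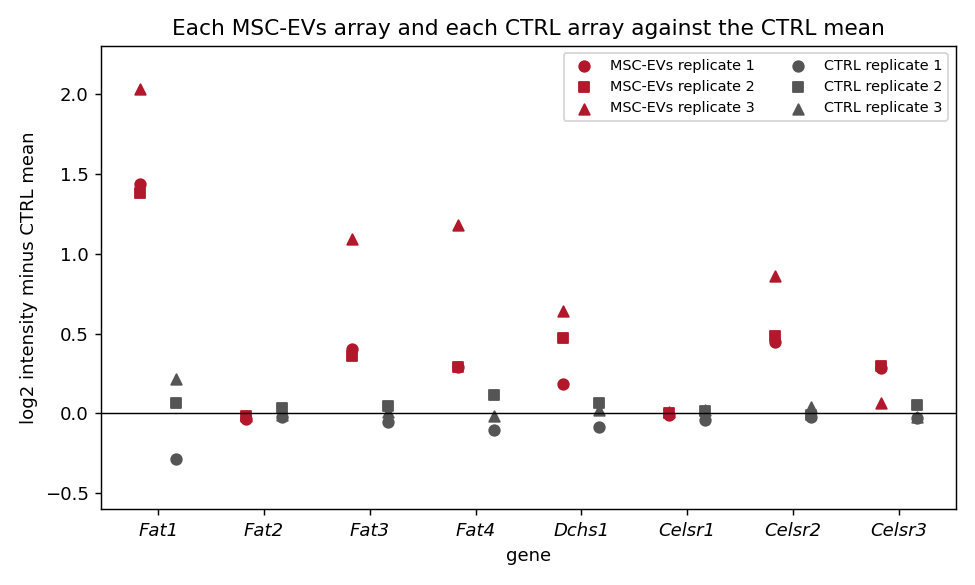
Log2 intensity minus the CTRL mean (y axis) of each cadherin gene (x axis) on the 3 MSC-EVs arrays and the 3 CTRL arrays, with 1 symbol per replicate. MSC-EVs replicate 3 lies above the other MSC-EVs arrays by 0.89 in Fat4 and 0.71 in Fat3 and below them by 0.23 in Celsr3.

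The genes with the profile most like that of Fat1 were sought among 6963 protein-coding genes with a mean of at least 6 log2 units, by the root mean square difference of centred log2 values over the 12 arrays. The nearest were Lrp1, an endocytic receptor (0.12 log2 units), Dync1h1, the heavy chain of cytoplasmic dynein (0.14), and Nf1, the Ras inhibitor neurofibromin (0.17), where the median over all candidates was 0.67 and the SD of Fat1 itself 0.65. All of them are encoded by very long mRNAs. Their log2 differences from CTRL with MSC-EVs, IL4-EVs and i-EVs were 1.52, 1.13 and 0.73 for Lrp1, 1.28, 0.99 and 0.59 for Dync1h1, and 1.26, 0.93 and 0.61 for Nf1. On MSC-EVs replicate 3 Fat1 parted from Lrp1: it exceeded the mean of the other MSC-EVs arrays by 0.63, and Lrp1 by 0.22. For Dchs1 the nearest profiles were those of Zmat3, a zinc finger protein (0.058), Numa1, a spindle pole protein (0.060), and Hdac4, a histone deacetylase (0.060), where the median over all candidates was 0.25 and the SD of Dchs1 0.20. These distances describe 12 shared arrays and carry no test.

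**Figure D4:**
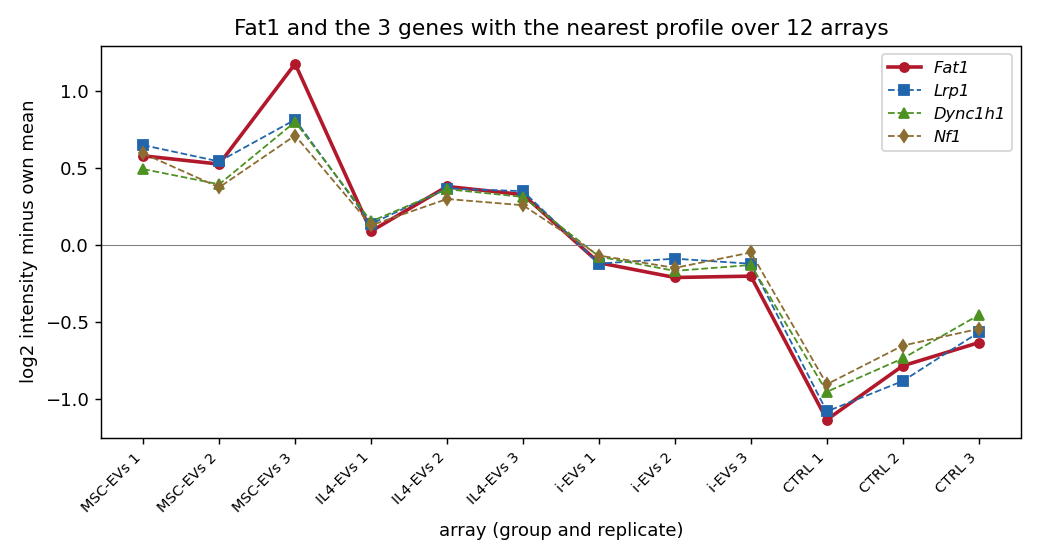
Log2 intensity minus the mean of the gene over the 12 arrays (y axis) for Fat1 and its nearest profiles Lrp1, Dync1h1 and Nf1, by array (x axis). In all of them the mean is highest with MSC-EVs, then IL4-EVs, i-EVs and CTRL, and on MSC-EVs replicate 3 Fat1 exceeds the other MSC-EVs arrays by 0.63 and Lrp1 by 0.22.

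Partners of Fat and Dachsous inside the cell and in the Golgi were measured with 10 genes, of which 3 rose with MSC-EVs, 2 with IL4-EVs and none with i-EVs, and none fell. For this and the following lists, the shares of all clusters that rose were 5.86% with MSC-EVs, 1.61% with IL4-EVs and 0.0977% with i-EVs, and of the clusters with a mean of at least 6 log2 units 15.3% rose with MSC-EVs and 6.47% with IL4-EVs. Without MSC-EVs replicate 3 the shares of all clusters were 4.93%, 2.7% and 0.601% with MSC-EVs, IL4-EVs and i-EVs. The share that fell was not counted in that fit, so list genes that fell there have no base to be set against. Rere, related to the fly atrophin that binds Fat, stood at 7.37, 7.43 and 7.49 with MSC-EVs, 7.18, 7.29 and 7.20 with IL4-EVs, 7.08, 6.92 and 7.17 with i-EVs, and 6.66, 6.75 and 6.91 in CTRL, with a change of 0.65 with MSC-EVs (adjusted p = 0.000767, limma). Enah, an actin elongation factor that Fat1 binds, rose by 0.40 (adjusted p = 0.00186), and Mpdz, a scaffold with PDZ domains, by 0.35 (adjusted p = 0.0240, limma), or by 0.23 without MSC-EVs replicate 3 (adjusted p = 0.0360). Rere and Enah also rose with IL4-EVs (0.45 and 0.41, adjusted p = 0.00971 and 0.00333, limma), with 1 gene left without CTRL replicate 1 or IL4-EVs replicate 2 and 3 without MSC-EVs replicate 3. Fjx1, named for its role as the relative of a fly Golgi kinase that modifies Fat and Dachsous, was dim at a mean of 4.06 and differed by -0.14 between MSC-EVs and CTRL (adjusted p = 0.530). The median of the list was 0.042 with MSC-EVs, 0.055 with IL4-EVs and 0.045 with i-EVs.

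The planar cell polarity list held 22 measured genes besides the Celsr genes, of which 2 rose with MSC-EVs, 1 rose and 1 fell with IL4-EVs, and none passed with i-EVs. These counts are near the shares of all clusters, of which 5.86% rose with MSC-EVs, and 1.61% rose and 4.13% fell with IL4-EVs. Dvl3, a cytoplasmic transducer of Frizzled receptors, rose by 0.46 with MSC-EVs (adjusted p = 0.0105) and by 0.55 with IL4-EVs (adjusted p = 0.00914, limma). Fzd3, a Frizzled receptor that works with Celsr3 in axon guidance, rose by 0.28 with MSC-EVs (adjusted p = 0.0490, limma). The gene that fell with IL4-EVs was Wdpcp, an effector of polarity and cilia (-0.27, adjusted p = 0.0392, limma), named after its values were seen. Vangl2, a core membrane protein of the pathway, stood 0.17 above CTRL with MSC-EVs (adjusted p = 0.129). The number that rose with MSC-EVs was 0 without CTRL replicate 1 and 1 when any of 8 other arrays was left out, MSC-EVs replicate 3 among them, where Fzd3 stood at 0.20 (adjusted p = 0.154) and Dvl3 also rose with i-EVs (0.38, adjusted p = 0.0493, limma). With IL4-EVs Dvl3 lost its call without CTRL replicate 1, and Wdpcp lost its call without CTRL replicate 1 or 2, i-EVs replicate 3 or any IL4-EVs array. The medians were 0.0023 with MSC-EVs (0.029 without replicate 3), 0.011 with IL4-EVs and 0.019 with i-EVs, close to those of all clusters.

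Of 20 Hippo kinases and regulators, 3 rose and 1 fell with MSC-EVs, 2 rose and 1 fell with IL4-EVs, and 1 fell with i-EVs. With MSC-EVs 5.86% of all clusters rose, and 15.3% of those of at least 6 log2 units, a level that 15 of the 20 genes reached. Taok1, a kinase upstream of the Hippo kinases, stood at 12.63, 12.60 and 12.71 with MSC-EVs, 12.43, 12.42 and 12.41 with IL4-EVs, 12.26, 12.12 and 12.27 with i-EVs, and 11.83, 11.97 and 12.01 in CTRL. It rose by 0.71 with MSC-EVs (adjusted p = 0.000306) and by 0.48 with IL4-EVs (adjusted p = 0.00254, limma). Map4k4, another upstream kinase, rose by 0.29 with MSC-EVs (adjusted p = 0.0132, limma), and the third gene was Taok2 (0.26, adjusted p = 0.0435), named after its values were seen, which also rose with IL4-EVs (0.29, adjusted p = 0.0434, limma). Mob1a, the activating partner of the Lats kinases, fell with all EV types (-0.42 with MSC-EVs, -0.36 with IL4-EVs and -0.31 with i-EVs, adjusted p = 0.000881, 0.00403 and 0.0427, limma). The number that rose with MSC-EVs was 1 without CTRL replicate 1 and 6 without MSC-EVs replicate 3. That with IL4-EVs was 1 when any of 9 arrays was left out and 5 without MSC-EVs replicate 3. In this last fit 2 genes fell with both EV types, and 1 gene, Ptpn14, rose with i-EVs. Without MSC-EVs replicate 3, 4.93% of all clusters rose with MSC-EVs, 2.7% with IL4-EVs and 0.601% with i-EVs. The medians were 0.11, 0.11 and 0.074 with MSC-EVs, IL4-EVs and i-EVs.

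The end of the Hippo pathway was mostly dim in these cells. Yap1 averaged 3.56 and Wwtr1, which encodes Taz, 3.99 log2 units over the 12 arrays, and of 7 genes for Yap, Taz and Tead factors Vgll4, a Tead cofactor, alone passed 6 log2 units, with a difference of -0.012 between MSC-EVs and CTRL (adjusted p = 0.960). Tead1, at a mean of 5.50 and named after its values were seen, rose with MSC-EVs by 0.42 (adjusted p = 0.00507, limma), and no other gene of the 7 passed with MSC-EVs, nor any with IL4-EVs or i-EVs. Without MSC-EVs replicate 3 Tead1 rose with IL4-EVs as well (0.24, adjusted p = 0.0307, limma), and the difference of Vgll4 with MSC-EVs was -0.096 (adjusted p = 0.448). Of 22 genes known as Yap targets in other cells, 1 rose with MSC-EVs and IL4-EVs and none fell: Asap1, a regulator of Arf GTPases (0.41 and 0.33, adjusted p = 0.00916 and 0.0475, limma). Its call with IL4-EVs was lost when any of 9 arrays was left out, and without MSC-EVs replicate 3 the targets that rose numbered 2 with both EV types and 1 with i-EVs, while 2 fell with IL4-EVs. Ptpn14, Lats2 and Amotl2 also stand on the Hippo list and Fjx1 among the partners, so the counts of these lists share genes. Ptpn14, a phosphatase that binds Yap, differed from CTRL by 0.36 with MSC-EVs (adjusted p = 0.305), and Igfbp3 by -0.15 (adjusted p = 0.605, limma). Without MSC-EVs replicate 3 Ptpn14 rose with MSC-EVs by 0.66 (adjusted p = 0.00106), with IL4-EVs by 0.54 (0.00163) and with i-EVs by 0.42 (0.0223, limma), and Igfbp3 differed by -0.30 with MSC-EVs (0.10) and fell with IL4-EVs (-0.43, 0.0168). The median of the target list was -0.013 with MSC-EVs (0.0017 without replicate 3), 0.010 with IL4-EVs and 0.011 with i-EVs.

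Other cadherins were measured with 43 genes, of which 7 rose with MSC-EVs, 3 with IL4-EVs and none with i-EVs, and none fell. The 7 of 43 with MSC-EVs lie above the 5.86% of all clusters that rose. Of the 43 genes 15 averaged at least 6 log2 units, so the 15.3% of such clusters that rose is no matched base for the 43. Pcdh15, a protocadherin of hair cell tip links, stood at 9.55, 9.49 and 9.74 with MSC-EVs, 9.29, 9.42 and 9.40 with IL4-EVs, 9.15, 9.11 and 9.23 with i-EVs, and 8.73, 8.89 and 8.88 in CTRL. It rose by 0.76 with MSC-EVs (adjusted p = 0.000412) and by 0.54 with IL4-EVs (adjusted p = 0.00313, limma). Pcdh10 and Pcdh17, protocadherins of axon outgrowth and sorting, rose with MSC-EVs by 0.64 and 0.55 (adjusted p = 0.00375 and 0.00419, limma). The number that rose with MSC-EVs was 4 without CTRL replicate 1 or MSC-EVs replicate 2 and 7 without MSC-EVs replicate 3. With IL4-EVs it was 1 when any CTRL or IL4-EVs array was left out and 6 without MSC-EVs replicate 3, where 1 also fell with both EV types. With i-EVs 1 rose (Pcdh15, 0.33, adjusted p = 0.0371, limma) and 1 fell without that array. The medians of the list were 0.0046 with MSC-EVs, 0.018 with IL4-EVs and 0.029 with i-EVs, against 0.51, 0.29 and 0.14 for the Fat, Dachsous and Celsr genes. Without MSC-EVs replicate 3 the medians with MSC-EVs were -0.0035 and 0.31. Both sets hold many dim genes, in which a change is hard to detect. At least 6 log2 units were reached by 15 of the 43 genes and by 2 of the 8 members. The medians therefore do not compare genes of like level.

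**Figure D5:**
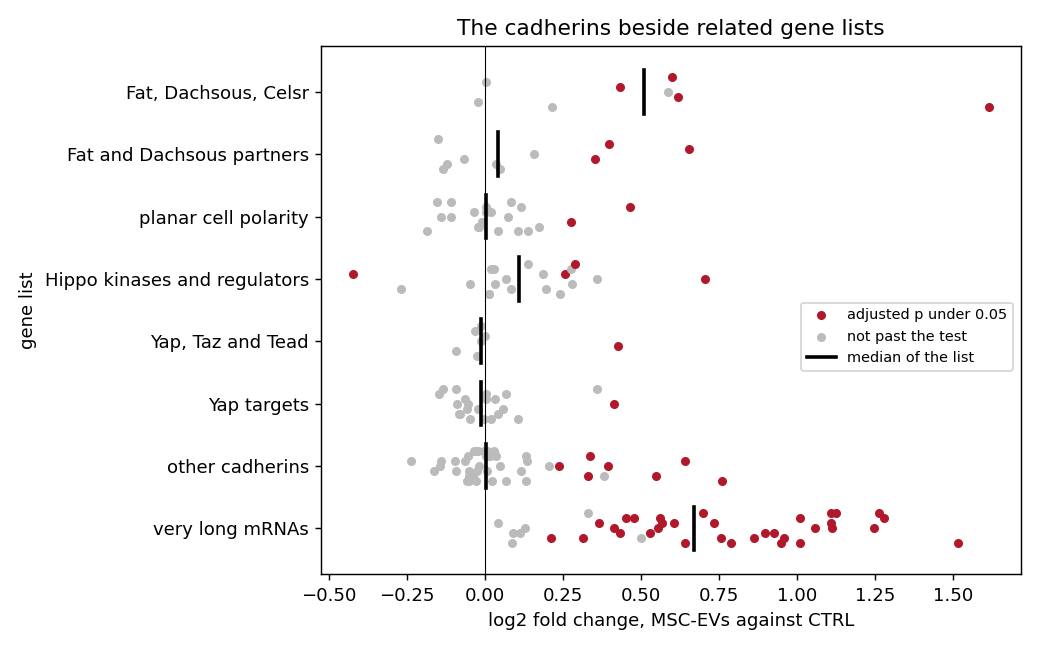
Log2 fold change with MSC-EVs against CTRL (x axis) of each measured gene of the Fat, Dachsous and Celsr family and of related lists (rows); red points have an adjusted p under 0.05, gray points do not, and black bars mark the list medians. The median is 0.51 for the family and 0.67 for very long mRNAs, and lies between -0.013 and 0.11 for the other lists. Dim genes are included in all medians, and their share differs between lists.

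Since the family is encoded by very long mRNAs, a list of 40 measured genes with very long mRNAs and other functions was set beside it. With MSC-EVs 33 of them rose, with IL4-EVs 30 and with i-EVs 4, and none fell with any. Their median log2 fold changes of 0.67 with MSC-EVs, 0.56 with IL4-EVs and 0.32 with i-EVs were above the members' medians of 0.51, 0.29 and 0.14, and with MSC-EVs the medians without replicate 3 were 0.70 for the list and 0.31 for the members. Of the list 32 of 40 genes averaged at least 6 log2 units, and of the members 2 of 8, so the 2 medians come from unlike signal levels. The list was written with results of these arrays known, so its direction is no independent evidence. Lrp1 rose by 1.52, Dst, a cytolinker, by 1.25 and Akap9, a centrosomal scaffold, by 1.13 with MSC-EVs (adjusted p = 0.000214 each, limma), and on MSC-EVs replicate 3 Dst stood 0.067 below the other MSC-EVs arrays where Fat1 stood 0.63 above them. Over all settings the number that rose lay between 30 and 34 with MSC-EVs and 21 and 33 with IL4-EVs. With i-EVs it ran from 0 to 19 and was 16 without MSC-EVs replicate 3. The part of mRNA length in the cadherin values was not tested.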

How the data were processed

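RNA of primary mouse OPCs was measured on 12 Clariom D arrays, 3 per group (MSC-EVs, IL4-EVs, i-EVs and CTRL), and groups were taken from the sample labels. The deposited intensity values came from RMA as run by the authors, with correction of the background, quantile normalization across all 12 arrays and a log2 summary per transcript cluster, and were given on a linear scale from 3.34 to 999968. The methods name the TAC software, Affymetrix Expression Console is given in the submitters' processing notes, and no source used here gives the genome build of the annotation. The table holds 65535 clusters and ends within chromosome 19, so that further clusters were not analysed here. Of these clusters 30404 carried 1 symbol, 2145 several and 32986 none. The deposited intensities were turned to log2 without a pseudocount, and a second deposited table held equal values (largest difference 4.44e-16 log2 units). The number of arrays limits the precision.

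Groups were compared with limma 3.58.1 (R 4.3.3) with 1 mean per group over all 12 arrays, 8 residual and 3.46 prior degrees of freedom, and Benjamini-Hochberg adjustment over all clusters within each of 6 comparisons. A gene rose or fell at an adjusted p under 0.05, and a fold of 1.5 was counted separately. The procedure was tested on simulated data. The members and gene lists were chosen with earlier results of these data known. Genes named are all members, per list the 3 genes of smallest p with MSC-EVs among those averaging at least 6 log2 units, and the 3 nearest profiles of Fat1 and Dchs1, with exceptions stated. Alternatives were other normalizations, a pseudocount of 16, a filter on dim clusters, another moderation of the spread, fits of 2 groups, a replicate block and leaving out each array. Further alternatives were the mean of all clusters of a gene and the second deposited table. Start sequences are from RefSeq (GRCm38.p6).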

Additional observations from a re-analysis of the deposited data

Results flagged for a closer look

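Fat1 differed between MSC-EVs and i-EVs, with a log2 difference of 0.94 between the 2 treatments in a direct test (adjusted p = 0.0286, limma), so that its change against the shared CTRL arrays was not equal for these EV types. All 3 MSC-EVs arrays lay above all 3 i-EVs arrays. The call did not hold without MSC-EVs replicate 3 (0.73, adjusted p = 0.0563) or when any i-EVs array was left out, and no cause was tested.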

How the results depend on the processing

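The rise of Fat1 with MSC-EVs and with IL4-EVs passed in 23 of 23 alternative settings, and that of Celsr2 with MSC-EVs in 22 of 22. Among these settings the second deposited table held equal values, so its outcome was fixed. Averaging the clusters of a gene left the members' values unchanged, since each had 1 cluster, and changed only the genes fitted beside them. The number of members past the test with MSC-EVs against CTRL (4) was 2 with dim clusters left out, since Fat1 and Dchs1 alone were then tested, and 2 with the 2 compared groups fitted alone. With IL4-EVs against CTRL (1) it was 2 with cyclic loess, 2 with quantile normalization repeated, 3 with the clusters of a gene averaged (fewer genes tested) and 6 with the 2 groups alone, where Fat1 was joined by Fat3, Fat4, Dchs1, Celsr2 and Celsr3, in a fit that called 3.09% of all clusters higher. With i-EVs against CTRL (0) it was 1, Fat1, with clusters averaged (adjusted p = 0.0471) and 1 with dim clusters left out (0.0279, limma). With MSC-EVs against i-EVs (1) it was 0 without moderation of the spread and 0 with the 2 groups alone. For the other comparisons between EV types it was 0 throughout. Leaving out single arrays gave 2 to 5 members for MSC-EVs, 1 to 5 for IL4-EVs and 0 to 1 for i-EVs against CTRL, and 0 to 1 for MSC-EVs against i-EVs. Where not stated, the cause was not tested. Of 18 pairs of same-numbered arrays of different groups, 8 correlated in their deviations at over 0.1 (r from -0.299 to 0.330). Of 36 pairs of other numbers 9 did so (-0.421 to 0.282). These values do not settle whether replicate numbers pair the samples. The main fit used no pairing, and a replicate block was fitted as an alternative. The replicate block gave 2 members with IL4-EVs, Celsr2 being added (adjusted p = 0.0404), and changed no other member count by over 1.5 times. Scaling moved the median of all clusters by less than 0.04 log2 units.

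The sign turned only where no test was passed. For Celsr1 the log2 differences with centred arrays, cyclic loess and repeated quantile normalization were -0.019, -0.0038 and -0.0074 for MSC-EVs against CTRL, -0.016, -0.012 and -0.0091 for IL4-EVs against CTRL, and -0.016, -0.011 and -0.016 for i-EVs against CTRL. With cyclic loess and repeated quantile normalization they were 0.0073 and 0.0083 for MSC-EVs against i-EVs and 0.0079 and 0.0017 for MSC-EVs against IL4-EVs, and with the last 0.0067 for IL4-EVs against i-EVs. Without single arrays Celsr1 ran from -0.019 to 0.013, -0.020 to 0.013 and -0.0083 to 0.049 for MSC-EVs, IL4-EVs and i-EVs against CTRL, from -0.047 to 0.010 for both other EV types against i-EVs, and from -0.011 to 0.021 for MSC-EVs against IL4-EVs. Fat2 turned to -0.0061, -0.0037 and -0.0078 for i-EVs against CTRL under the same 3 settings, and to 0.0053 and 0.0062 (cyclic loess, repeated quantile) and -0.0063 to 0.0075 (without single arrays) for MSC-EVs against IL4-EVs. For that comparison Celsr3 ran from -0.053 to 0.064 and Fat4 from -0.015 to 0.43 without single arrays. Of the remaining values of members and lists, 2966 stayed the same, 240 moved, 23 gained and 15 lost a call. Signals near the array median limit Fat2 and Celsr1.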
